A study of Mus musculus with 6 samples.

Results

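The transcripts described here encode the machinery of the lysosome: 43 genes, made up of 21 soluble hydrolases and their cofactors, 6 membrane proteins, 13 subunits or accessory proteins of the vacuolar proton pump (V-ATPase), and the 3 transcription regulators Tfeb, Tfe3 and Mitf. They were chosen by gene name and by what their products do, without a cut on a measured value, but with earlier results of these data known. Of the 43, 43 were found among the 17068 genes of the deposited tables. The cells were haematopoietic stem cells (HSCs) purified from bone marrow of mice of the Gfp-Lc3 genotype, in which the autophagosome protein LC3 is tagged with a fluorescent protein, and were profiled by droplet single-cell RNA sequencing. There were 6 libraries: old and young mice fasted for 24 hours and then refed for 24 hours, old and young mice fasted for 24 hours, and old and young mice fed ad lib, with 1 library for each combination. All 6 libraries share the reporter, and the labels do not say how many mice stand behind each library. The deposited tables compare each of 11 clusters of cells, numbered 0 to 10, with all other cells of the pooled libraries, and no map from cells to libraries was used here. Age and feeding were therefore not analysed here, no value carries an error between animals, and the level of a gene in a cluster may rest on 1 library.

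Lysosomes are acidic compartments in which hydrolases break down proteins, glycans, lipids and nucleic acids that arrive by endocytosis and autophagy. The V-ATPase acidifies them by pumping protons through its membrane ring (V0), driven by ATP hydrolysis in its cytosolic head (V1), and the membrane proteins protect the limiting membrane and carry ions and lipids across it. The MiT family factors TFEB, TFE3 and MITF enter the nucleus when the nutrient-sensing kinase complex mTORC1 is inactive and bind short E-box motifs near the start sites of many lysosomal genes. HSCs are known to depend on autophagy and lysosomal degradation for their maintenance, and their lysosomal activity differs between quiescent and activated cells.

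The promoters were searched for the motifs that MiT factors are known to bind. RefSeq windows of build GRCm38.p6, from 250 bases before to 50 bases after each start site, were matched for 37 of the 43 genes. The E-box CACGTG was found in 14 of these 37 genes (37.8%), against 2187 of 27025 genes in the whole promoter table (8.09%). The longer palindrome TCACGTGA, which contains that E-box, was found in 7 of 37 (18.9%), against 304 of 27025 genes (1.12%). The M-box TCATGTGA, searched on both strands, was found in 5 of 37 (13.5%), against 310 of 27025 genes (1.15%). At least 1 of the 3 motifs was in 11 of 19 hydrolase and cofactor genes, 2 of 5 membrane protein genes, 5 of 10 V-ATPase genes and 0 of 3 regulator genes. A match is a description of letters and not evidence of binding. Windows were not matched for Ctsb, Ctsh, Npc1, Atp6v1b2, Atp6v1g1 and Atp6v1h.

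**Figure D1:**
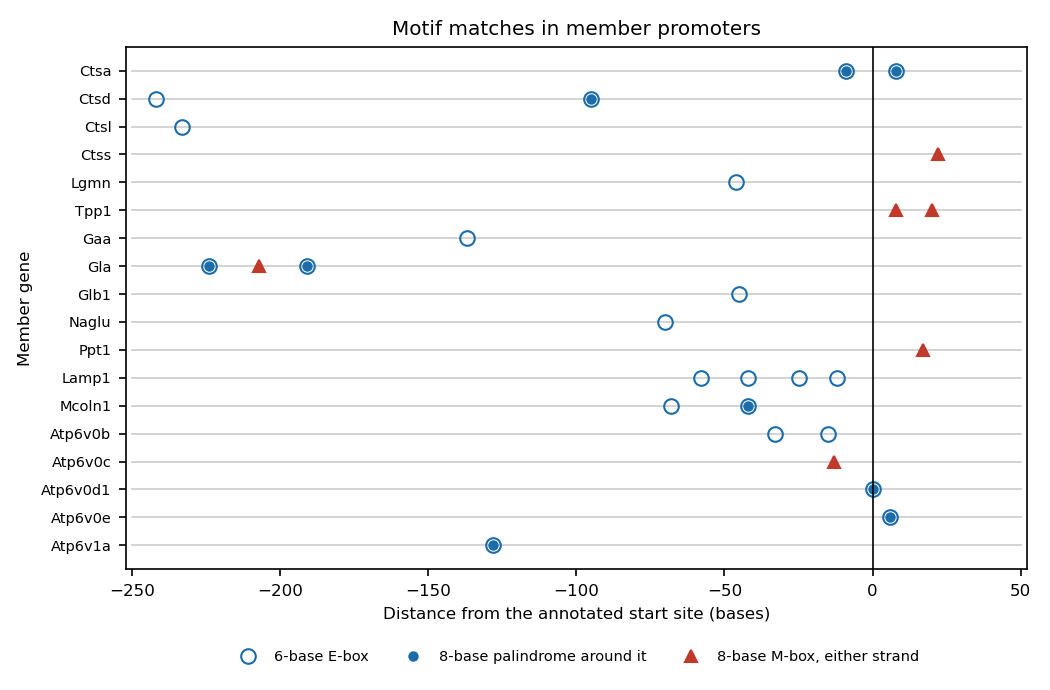
Positions of motif matches in the promoters of the 18 lysosomal genes that hold at least 1, one gene per row, with the distance from the annotated start site in bases on the horizontal axis. Open circles are the E-box, filled circles the longer palindrome around it and triangles the M-box; Lamp1 holds 4 E-boxes within the 61 bases before its start site.

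The stretches below show the motifs beside members whose levels are described further on. Naglu, Lgmn and Ctss passed the size rule given below in a large cluster, and Ctsa, Ctsd, Lamp1, Mcoln1 and Atp6v0e passed it in none of the large clusters. They were chosen after their values were seen, and none of Naglu, Lgmn and Ctss holds TCACGTGA in its window. Each is written 5′ to 3′ on the gene's strand with the motifs in capitals, and position 0 is the annotated start site.
Naglu, chr11:101069976-101070071, plus strand: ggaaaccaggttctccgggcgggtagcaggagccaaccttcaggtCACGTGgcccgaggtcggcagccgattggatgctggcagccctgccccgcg
Lgmn, chr12:102439091-102439186, minus strand: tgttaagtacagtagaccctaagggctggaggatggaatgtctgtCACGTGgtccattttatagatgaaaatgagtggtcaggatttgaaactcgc
Ctss, chr3:95526759-95526815, plus strand: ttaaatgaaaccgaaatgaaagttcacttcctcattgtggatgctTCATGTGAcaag
Ctsa, chr2:164833715-164833802, plus strand: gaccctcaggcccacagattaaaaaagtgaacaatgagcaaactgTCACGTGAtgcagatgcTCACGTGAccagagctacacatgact
Ctsd, chr7:142387874-142387971, minus strand: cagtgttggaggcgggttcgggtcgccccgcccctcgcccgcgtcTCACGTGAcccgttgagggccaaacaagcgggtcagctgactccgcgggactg
Lamp1, chr8:13159055-13159190, plus strand: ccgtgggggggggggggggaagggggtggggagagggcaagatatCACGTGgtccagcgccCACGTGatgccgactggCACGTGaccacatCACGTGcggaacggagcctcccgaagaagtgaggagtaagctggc
Mcoln1, chr8:3500403-3500525, plus strand: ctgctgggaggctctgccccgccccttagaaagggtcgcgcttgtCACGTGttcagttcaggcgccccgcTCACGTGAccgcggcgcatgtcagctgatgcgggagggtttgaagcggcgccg
Atp6v0e, chr17:26676353-26676425, plus strand: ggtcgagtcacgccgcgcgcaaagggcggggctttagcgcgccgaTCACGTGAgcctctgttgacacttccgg
The E-box lies 73 bases before the start site of Naglu and 49 before that of Lgmn, and the palindrome 99 bases before that of Ctsd and 46 before that of Mcoln1, counted to the first base of the motif. The start sites used for Lgmn (102439092) and Ctsa (164833773) lie inside the annotated genes (chr12:102394082-102439728 and chr2:164832872-164841032). Their windows are therefore not at the outer end of the gene.

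The 11 clusters held 22378 cells. Clusters 0 to 4 had 4904, 3955, 3910, 3802 and 3747 cells, and clusters 5 to 10 had 1188, 310, 267, 173, 112 and 10 cells. Cells whose totals could be read held a median of 11707 counts (4239 to 22599). These were the cells holding the 19 genes seen in 1 cell, and none lay in clusters 7 to 10. Levels below are mean counts per 10000 counts of a cell, computed from the deposited mean, fold and cluster size; they are counts of molecules and not per transcript length, so genes are not ranked against each other. Of the 43 members, 36 were at or above the median level of all genes, so most had enough counts in clusters 0 to 5 for small differences to be seen. A member was called when the log2 fold in the authors' deposited table was at least 0.5 in size with an adjusted p under 0.05. That p is computed over cells, and the clusters were drawn on the same expression values, so a call is a filter and not a test of a difference between mice. HSC markers were detected in every cluster (8 of 8), with a summed level between 11.4 in cluster 6 and 19.2 in cluster 10.

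In the large clusters few lysosomal genes were called, as few of all genes were. In cluster 0, 0 of 43 members were called higher and 3 lower, against 2.4% and 6.62% of all genes. In cluster 1 no member was called in either direction, against 0.123% of all genes higher and 2.4% lower. In cluster 2, 1 member was called higher and 2 lower, against 3.02% and 3.49% of all genes. In clusters 3 and 4 none was called, against 0.703% higher and 1.9% lower in cluster 3, and 0.387% higher and 1.35% lower in cluster 4. In cluster 5, 0 were called higher and 1 lower, against 0.135% and 4.87%. These are shares near or below the background. Among genes at or above the median level, 1.96% were called lower in cluster 0, 1.2% higher in cluster 2 and 0.105% lower in cluster 5. Of the 36 members at such levels, 1 was called in cluster 0 and 1 in cluster 2, Ctsh in both, and 0 in cluster 5.

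The small clusters held more calls, among members as among all genes. In cluster 6, 1 member was called higher and 4 lower, against 0.0469% and 26.2% of all genes. In cluster 7, 0 were called higher and 4 lower, against 1.84% and 24.3%. In cluster 8, 1 was called higher and 2 lower, against 2.37% and 19.5%. In cluster 9, 1 was called higher and 2 lower, against 1.2% and 19.9%. In cluster 10, of 10 cells, 2 were called higher and 1 lower, against 1.79% and 27.6%. The shares of all genes called lower in these clusters include genes with no count there. Among genes at or above the median level they were 18%, 15.3%, 3.8%, 1.89% and 0.422% for clusters 6 to 10, in that order. Of the 36 members at such levels, 4, 4, 1, 1 and 0 were called lower there, in the same order. Altogether 25 of 473 pairs of member and cluster were called (5.29%), 7 of 258 in clusters 0 to 5 and 18 of 215 in clusters 6 to 10. They involve 19 members, of which 5 (Ctsh, Ctss, Lgmn, Naglu and Cd68) were called in clusters 0 to 5 and 14 in clusters 6 to 10 alone, and 24 members were called nowhere. By the authors' deposited values, 32 of 43 members stayed within 0.3 of 0 on the log2 scale in all of clusters 0 to 5. The share of all genes within that bound was not computed, so this count does not set the members apart.

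**Figure D2:**
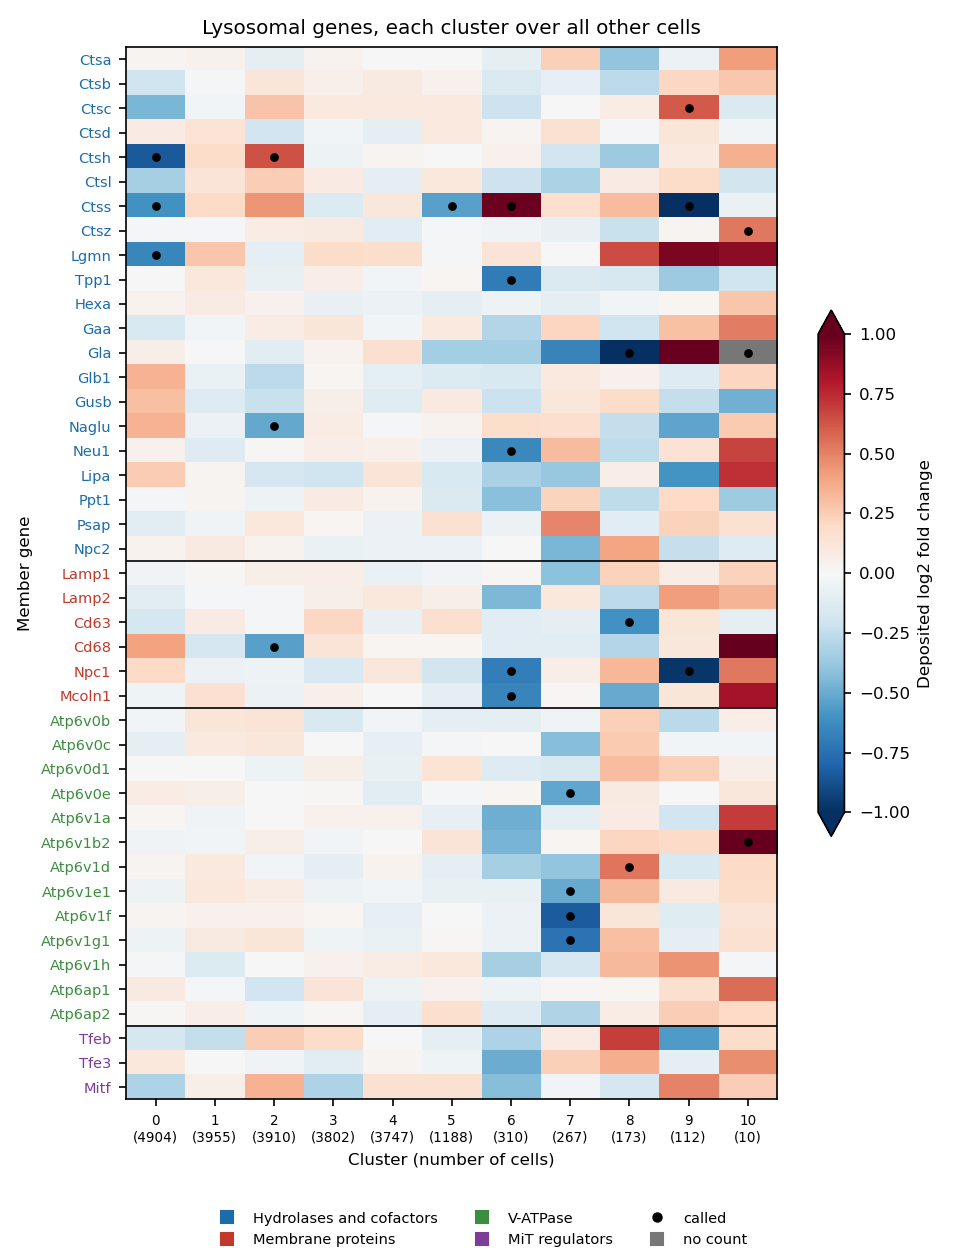
Deposited log2 fold change of each of the 43 members (rows, grouped by class) in each of the 11 clusters against all other cells (columns, with cell numbers); red is higher in the cluster, blue lower, dots mark calls and grey marks a gene with no count. Clusters 0 to 5 are pale apart from a few proteases, glycosidases and Cd68, and 18 of the 25 calls lie in clusters 6 to 10.

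Of the 5 members called in large clusters, 3 were proteases. Ctsh, cathepsin H (chr9:90054267-90076095), a cysteine protease that trims peptides from the amino end, had mean levels of 0.187, 0.335, 0.429, 0.293, 0.307 and 0.302 in clusters 0 to 5, in that order. Its levels were 0.312, 0.266, 0.235, 0.323 and 0.387 in clusters 6 to 10. Cluster 0 was the lowest of the 11 and cluster 2 the highest. In the authors' deposited tables its log2 fold was -0.84 in cluster 0 (0.187, against 0.334 in the rest) and 0.64 in cluster 2 (0.429, against 0.275 in the rest).

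Ctss, cathepsin S (chr3:95526786-95556405), is the protease that trims the invariant chain of MHC class II in antigen-presenting cells. Its mean levels were 0.0432, 0.0678, 0.0775, 0.056, 0.0648 and 0.0425 in clusters 0 to 5, in that order. The small clusters had 0.118, 0.0681, 0.0756, 0.0195 and 0.0581 in clusters 6 to 10. Clusters 0 and 5 were thus lowest among the large ones, and cluster 6 was highest of all. The authors' deposited tables gave log2 folds of -0.60 in cluster 0, -0.54 in cluster 5 and 0.98 for cluster 6. The level of cluster 5 rests on about 59 counts in all and that of cluster 6 on about 42.8. Cluster 9 was called lower (0.0195, against 0.0609 in the rest), but its level rests on about 2.56 counts, so no fold is given. Cathepsin S is a gene of antigen-presenting cells. Of the 5 dendritic markers listed, Siglech and Itgax were not found, which left Cd74 (the invariant chain), H2-Aa and H2-Ab1. These 3 belong to MHC class II presentation and had counts in every cluster, so they do not mark dendritic cells alone. They had a summed level of 1.69 in cluster 0, against 2.37 in the rest. Cd74 was called lower there (-0.87 in the authors' deposited table), while H2-Aa (-0.36) and H2-Ab1 (0.01) were not called. In cluster 5 the same sum was 2.64, against 2.2 in the rest, and in cluster 6 it was 1.96, against 2.23. The 12 macrophage and monocyte markers summed to 2.99 in cluster 6, against 2.74 in the rest, a sum that is almost all Lyz2, at 2.73. Of the 10 of these markers with a count in cluster 6, 9 were above 0 in the authors' deposited table, with a median log2 fold of 1.33, and none was called higher. Markers without a count are left out of both figures. A marker as rare as Csf1r, at 0.00102 over all cells, can only read above 0 in cluster 6 once it has a count. Both figures therefore lean upward. Ccr2 and Ly6c2 had levels of only 0.0335 and 0.0796 in cluster 6 and were not called, so their folds are not given. Adgre1 and Fcgr1 had no count there. How many cells hold the counts of Ccr2 and Ly6c2 is not known. The 5 erythroid markers summed to 9.65 in cluster 6, against 1.73 in the rest, with Hbb-bs called higher. The part of these markers in the Ctss levels was not tested.

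Lgmn, legumain (chr12:102394082-102439728), an asparaginyl endopeptidase that processes cathepsins, had mean levels of 0.019, 0.0321, 0.0261, 0.0306, 0.0304 and 0.0273 in clusters 0 to 5, in that order. Its levels were 0.03, 0.0274, 0.043, 0.0526 and 0.0512 in clusters 6 to 10. Cluster 0 was again the lowest of all, with a log2 fold of -0.65 in the authors' deposited table (0.019, against 0.0299 in the rest), and the higher values of clusters 8 to 10 were not called. Ctsd, cathepsin D, the main aspartic protease of the lysosome, kept to a narrow band in comparison. Its levels were 1.64, 1.69, 1.4, 1.54, 1.48, 1.67, 1.59, 1.73, 1.55, 1.7 and 1.53 in clusters 0 to 10, in that order. No cluster was called for Ctsd, and cluster 2 was its lowest.

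The other proteases were called in small clusters or nowhere. Ctsc, cathepsin C, the dipeptidyl peptidase that activates serine proteases of granules, had a level of 0.785 in cluster 9, against 0.512 in the rest, a log2 fold of 0.62 in the authors' deposited table. The 9 neutrophil granule markers, among them substrates of cathepsin C, summed to 9.14 there, against 8.65 in the rest, and Prtn3 alone gave 8.76 of the sum in cluster 9. All 7 with a count were above 0 in the authors' deposited table, with a median log2 fold of 0.87, none called higher. Elane and Ctsg had no count and are left out of that median. A marker as rare as Mpo, at 0.00343 over all cells, can only read above 0 in cluster 9 once it has a count. The 7 of 7 and the median therefore lean upward. Prtn3 itself was at 0.06 in that table. Ltf and Mpo had levels of only 0.0336 and 0.0182 in cluster 9, so their folds are not given. Their part in the Ctsc level was not tested. By the authors' deposited tables Ctsc stood at -0.46 in cluster 0 and at 0.29 in cluster 2, neither of them called. Tpp1, tripeptidyl peptidase 1, was at 0.308 in cluster 6, against 0.499 in the rest (log2 fold -0.70 in the authors' deposited table). Ctsz, a carboxypeptidase, was at 1.12 in the 10 cells of cluster 10, against 0.779 in the rest (0.52 in the authors' deposited table), from about 13.1 counts. After subtraction of the median fold of all detected genes Ctsz stood at 0.15 and was no longer called. Ctsa, the carboxypeptidase that protects the enzymes encoded by Glb1 and Neu1, and the endopeptidase genes Ctsb and Ctsl were called nowhere. In clusters 0 to 5 of the authors' deposited tables their log2 folds ran from -0.10 to 0.05 for Ctsa, from -0.20 to 0.12 for Ctsb and from -0.33 to 0.25 for Ctsl. Over the 10 proteases the median log2 fold in the authors' deposited tables was -0.26 in cluster 0, where 3 of 10 were above 0, and 0.10 in cluster 2, where 6 of 10 were. The median over all detected genes was 0.01 in cluster 0 and 0.02 in cluster 2.

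Of the 7 glycosidases, Naglu was the one called in a large cluster. Naglu, the N-acetyl-alpha-glucosaminidase that degrades heparan sulfate (chr11:101070090-101077672), had mean levels of 0.109, 0.0878, 0.0671, 0.0948, 0.0898 and 0.0928 in clusters 0 to 5, in that order. It had 0.102, 0.102, 0.0769, 0.0629 and 0.109 in clusters 6 to 10. Among the large clusters cluster 2 was lowest and cluster 0 highest, the reverse of Ctsh. In the authors' deposited tables the log2 fold of Naglu was -0.51 in cluster 2 (0.0671, against 0.0957 in the rest), which was called, and 0.35 in cluster 0, which was not.

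Glb1, the beta-galactosidase whose activity is used as a stain for senescent cells, was at 0.349 in cluster 0 and between 0.25 (cluster 2) and 0.294 in the other large clusters. Gusb, the beta-glucuronidase, was at 0.568 in cluster 0 and between 0.426 (cluster 2) and 0.513 in the other large clusters. Both had their highest level of the large clusters in cluster 0 and their lowest in cluster 2, with log2 folds in the authors' deposited tables of 0.35 and -0.26 for Glb1 and 0.30 and -0.22 for Gusb, none called. Hexa, the alpha subunit of beta-hexosaminidase, and Gaa, the acid alpha-glucosidase that digests glycogen, were called nowhere. Their log2 folds in the authors' deposited tables ran from -0.10 to 0.09 for Hexa and from -0.16 to 0.12 for Gaa in clusters 0 to 5. Neu1, a sialidase, was at 0.124 in cluster 6, against 0.195 in the rest (-0.65 in the authors' deposited table). Gla, alpha-galactosidase A, was called lower in cluster 8, at 0.0114, against 0.0302 in the rest, but its level there rests on about 2.32 counts. In cluster 10 Gla had no count in 10 cells, against a level of 0.0301 in the rest, and was the lower call there. A limit of 3 counts allows a level of up to 0.256 there, which is above the level in the rest, so nothing can be read from it. Gla was the only member without a count in a cluster.

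Lipid-handling enzymes and cofactors were called in no cluster on the deposited scale. Lipa, the acid lipase that releases cholesterol and fatty acids from lipoprotein lipids, and Ppt1, which removes palmitate from proteins, spanned -0.20 to 0.25 and -0.14 to 0.08 in clusters 0 to 5 of the authors' deposited tables. Psap, the precursor of the saposins that present sphingolipids to hydrolases, had log2 folds of -0.11 to 0.15 there. In cluster 7 Psap was at 1.85, against 1.32 in the rest, or 0.49 in the authors' deposited table. It stood at 0.57 with nuclear counts alone in the scaling and at 0.53 after subtraction of the median fold of all detected genes, and under either it was called higher. Npc2, which hands cholesterol to the membrane protein encoded by Npc1, had levels of 1.79, 1.85, 1.8, 1.7, 1.7 and 1.7 in clusters 0 to 5, in that order. Levels of Npc2 were 1.77, 1.29, 2.31, 1.5 and 1.61 in clusters 6 to 10, so that cluster 8 was highest and cluster 7 lowest.

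**Figure D3:**
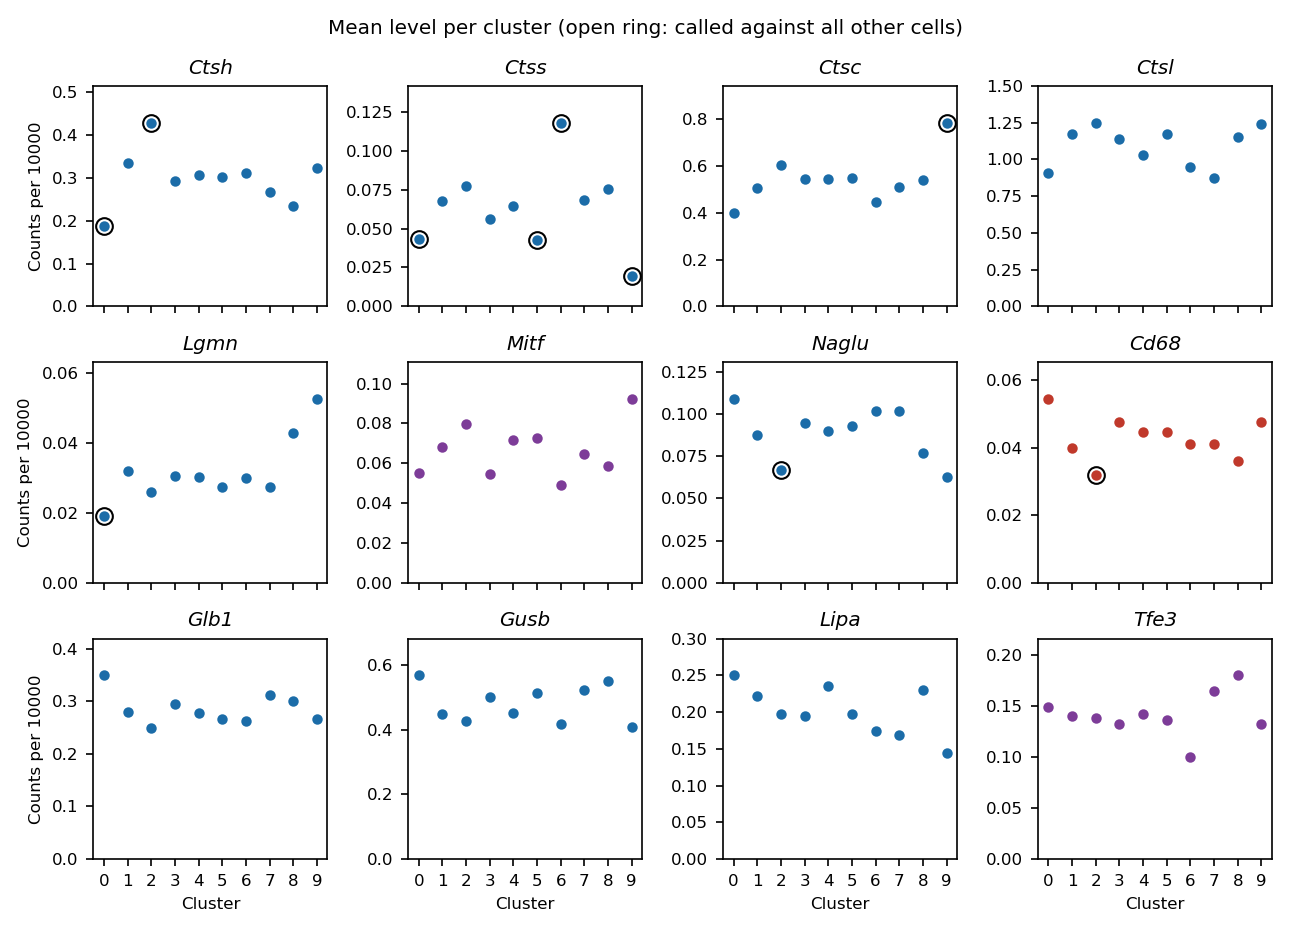
Mean level of 12 members (counts per 10000 counts, vertical axes from 0) in clusters 0 to 9; each point is the mean over the cells of a cluster, with no replicate and no error bar, and open rings mark calls. Ctsh is lowest in cluster 0 (0.187) and highest in cluster 2 (0.429), whereas Naglu, Cd68, Glb1 and Gusb are higher in cluster 0 than in cluster 2; cluster 10, of 10 cells, is left out.

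Set directly against each other, clusters 0 and 2 differed in opposite directions for some proteases and some glycosidases, a contrast chosen after the values were seen. Cluster 0 over cluster 2, the log2 ratio of the levels computed here was -1.20 for Ctsh, -0.84 for Ctss, -0.60 for Ctsc, -0.46 for Ctsl, -0.46 for Lgmn and -0.25 for Ctsb. It was 0.70 for Naglu, 0.48 for Glb1, 0.42 for Gusb and 0.34 for Lipa. Ctsd, at 0.22, ran against the other endopeptidases, and Gaa, at -0.19, against most glycosidases. The median was -0.36 over the 10 proteases, of which 3 were below -0.5, and 0.14 over the 7 glycosidases, of which 71.4% were above 0. Of the 43 members 14% lay past 0.5 in size, against 24.6% of all genes detected in both clusters. Among the 36 members at or above the median level 5.56% did, Ctsh and Ctsc, against 6.83% of all genes at such levels, whose median was 0.01. None of the 13 V-ATPase genes lay past 0.5, and their median was -0.01.

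These 2 clusters also differed in markers. HSC markers summed to 11.6 in cluster 0, against 16.4 in the rest, with 5 of 8 called lower, and to 18.5 in cluster 2, against 14.6 in the rest, with 3 of 8 called higher. Megakaryocyte markers summed to 2.09 in cluster 0, against 1.08 in the rest, with 6 of 6 called higher, and to 0.883 in cluster 2, against 1.39 in the rest, with 3 of 6 called lower. The part of these states in the lysosomal levels was not tested.

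**Figure D4:**
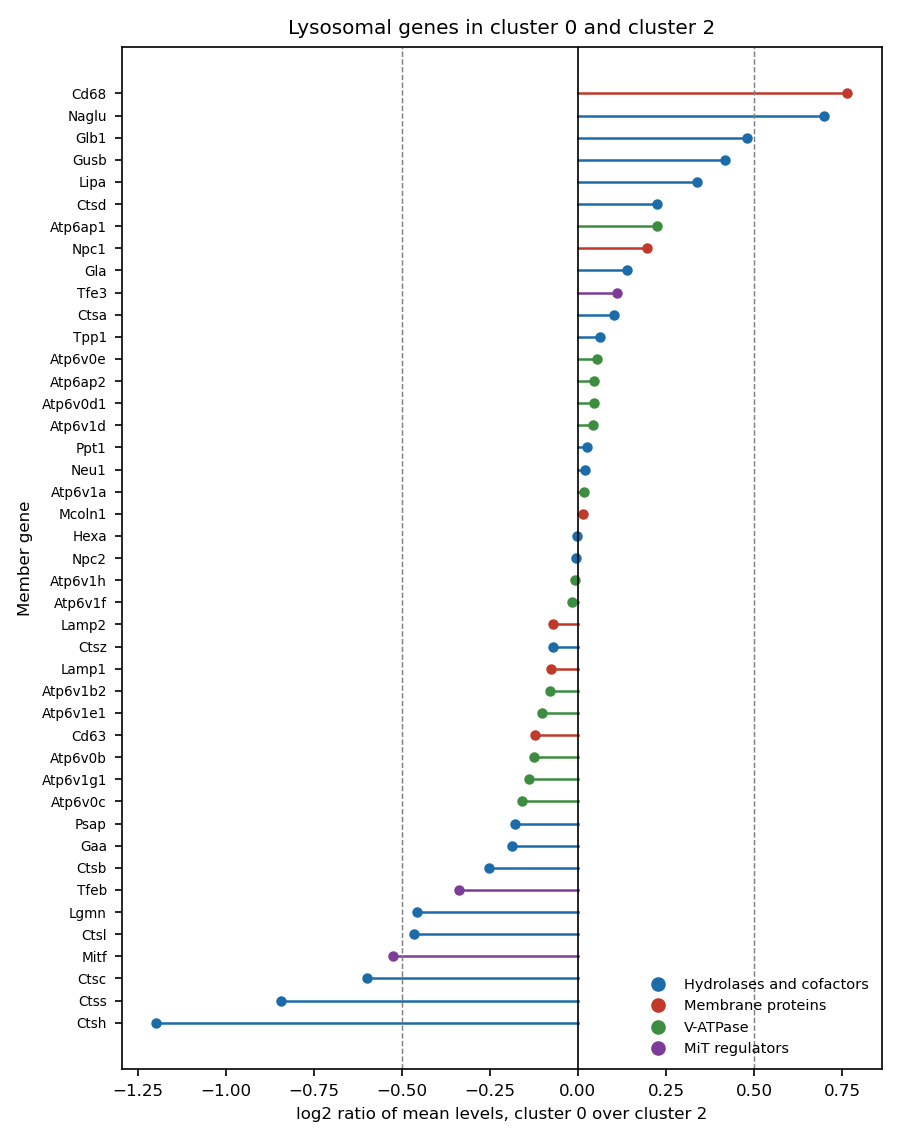
Log2 ratio of mean levels, cluster 0 over cluster 2, for the 43 members, one per row and coloured by class, with dashed lines at 0.5 in either direction. Ctsh (-1.20), Ctss (-0.84), Ctsc (-0.60) and Mitf (-0.52) lie past the line on the left, Naglu (0.70) and Cd68 (0.77) on the right, and V-ATPase genes stay between the lines.

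Among the membrane proteins Cd68 alone was called in a large cluster. Cd68, a LAMP-family glycoprotein best known from macrophages (chr11:69664213-69666170), had mean levels of 0.0544, 0.04, 0.032, 0.0475, 0.0447 and 0.0447 in clusters 0 to 5, in that order. The small clusters held 0.0411, 0.0411, 0.036, 0.0477 and 0.0973 in clusters 6 to 10. Its log2 fold in the authors' deposited tables was -0.54 in cluster 2 (0.032, against 0.0467 in the rest), which was called, and 0.40 in cluster 0, which was not. The 12 macrophage and monocyte markers summed to 2.49 in cluster 2, against 2.8 in the rest, with 4 called lower, and to 3.14 in cluster 0, against 2.63 in the rest, with 2 called higher and 1 lower. Nearly all of that sum was Lyz2, at a mean level of 2.66, while the defining markers Csf1r and Adgre1 were near 0, at 0.00102 and 0.000549 over all cells. At such levels the folds of Csf1r and Adgre1 are not given. Of the 12 markers, 8 were above 0 and 4 below in cluster 0, with a median log2 fold of 0.21 in the authors' deposited table. In cluster 2, 11 of them had a count, of which 2 were above 0 and 9 below, with a median of -0.42. What part these markers had in the Cd68 level was not tested.

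Cd63, a tetraspanin of late endosomes and lysosomes, had levels of 4.79, 5.51, 5.21, 5.91, 5.04 and 5.86 in clusters 0 to 5, in that order. Levels were 4.86, 4.91, 3.47, 5.72 and 4.95 in clusters 6 to 10. The call was in cluster 8, with a log2 fold of -0.61 in the authors' deposited table (3.47, against 5.28 in the rest). Lamp1, the abundant glycoprotein that lines the lysosomal membrane and whose promoter carries 4 E-boxes, was steadier. Levels of Lamp1 were 1.18, 1.22, 1.25, 1.25, 1.16, 1.18, 1.22, 0.913, 1.42, 1.27 and 1.42 in clusters 0 to 10, in that order. Lamp1 and Lamp2, which also takes part in chaperone-mediated autophagy, were called nowhere, and Lamp2 spanned -0.10 to 0.10 in clusters 0 to 5 of the authors' deposited tables.

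Npc1, the cholesterol exporter of the lysosomal membrane, was at 0.115 in cluster 6, against 0.185 in the rest, and at 0.0938 in cluster 9, against 0.184 in the rest. These are log2 folds of -0.69 and -0.98 in the authors' deposited tables, the second from about 12.3 counts. Mcoln1, the calcium channel TRPML1 that feeds back on TFEB, was at 0.0619 in cluster 6, against 0.0976 in the rest (-0.66 in the authors' deposited table), from about 22.5 counts. Both genes stayed between -0.18 and 0.20 in clusters 0 to 5 of the authors' deposited tables.

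The 13 V-ATPase genes moved least among the large clusters. In the authors' deposited tables all of their values there lay between -0.19 and 0.16, and no member was called. Atp6v0c, the proteolipid of the proton-carrying ring, had levels of 2.25, 2.5, 2.52, 2.37, 2.25, 2.34, 2.35, 1.76, 2.83, 2.32 and 2.32 in clusters 0 to 10, in that order. Atp6v1f, a subunit of the rotating stalk, had levels of 2.56, 2.59, 2.59, 2.56, 2.41, 2.53, 2.43, 1.43, 2.74, 2.32 and 2.76 in clusters 0 to 10, in that order. For both genes cluster 7 was the lowest, and clusters 8 and 10 held the highest levels of Atp6v1f.

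In cluster 7, 4 of the 13 pump genes were called lower and none higher. Atp6v1f was at 1.43 there, against 2.54 in the rest, with a log2 fold of -0.83 in the authors' deposited table. Atp6v1g1, of the peripheral stalk, was at 1.17, against 1.95 in the rest (-0.74 in the authors' deposited table). Atp6v0e, a small V0 subunit, was at 1.39, against 2 in the rest (-0.52), and Atp6v1e1, the partner of the G subunit in the peripheral stalk, was at 0.668, against 0.95 in the rest (-0.51), both from the authors' deposited table. The catalytic subunit gene Atp6v1a and the V1 gene Atp6v1b2 were at -0.09 and 0.02 in the authors' deposited table, and neither was called. The median over the 13 genes was -0.30, with 2 of 13 above 0 in the authors' deposited table. Over all detected genes the median was -0.04. Among genes at or above the median level, as all 13 were, the median was -0.11. Of the genes at such levels 39.1% were above 0, 3.48% were called higher and 15.3% lower.

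Cluster 7 differed from the other cells in further ways. Its mitochondrially encoded transcripts made up 9.35% of counts, against 4.21% in the rest. When nuclear counts alone set the scale, Atp6v0e and Atp6v1e1 stood at -0.44 and -0.43 and were no longer called. Across 8267 genes at or above the median level the authors' deposited fold in cluster 7 went with the length of the longest coding transcript (Spearman rho 0.55). The same rho was 0.24 over the 43 members and 0.42 over the 13 V-ATPase genes. The 4 pump genes called lower had a median length of 1224 bases, against 2049 bases over the 13. In cluster 6 the relation over the same genes ran the other way (rho -0.51, and -0.54 over the 43 members). These correlations are across genes of the same cells, which share libraries and depth, and the part of length or of mitochondrial counts in the pump genes' values was not tested.

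In cluster 8 the pump genes were on the other side of 0. All 13 were above 0 in the authors' deposited table, with a median log2 fold of 0.24, and 65.1% of genes at or above the median level were above 0 there too. Atp6v1d, the central shaft of the rotor, was called, at 1.04, against 0.722 in the rest (0.53 in the authors' deposited table). After subtraction of the median fold of all detected genes it stood at 0.40, under the size of a call. In cluster 6, 1 of 13 was above 0 and 16.6% of genes at or above the median level were. In cluster 10 Atp6v1b2 was at 0.735, against 0.368 in the rest (1.00 in the authors' deposited table), from about 8.6 counts in 10 cells. The remaining pump genes, Atp6v0b, Atp6v0d1, Atp6v1a, Atp6v1h and the accessory genes Atp6ap1 and Atp6ap2, whose products help assemble the pump, were called nowhere.

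**Figure D5:**
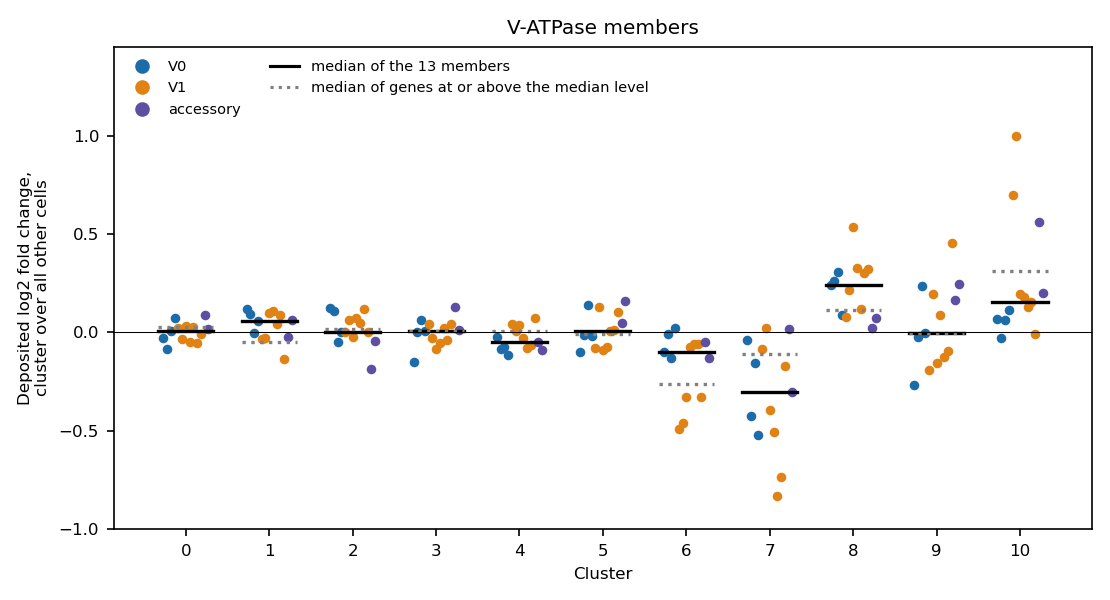
Deposited log2 fold change of the 13 V-ATPase genes in each cluster against all other cells, coloured by sector; the black line is their median and the dotted line the median of genes at or above the median level. The points lie within 0.2 of 0 in clusters 0 to 5, spread down to -0.83 in cluster 7, and are all above 0 in cluster 8.

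The 3 MiT regulators were called in no cluster. Tfeb had levels of 0.0595, 0.057, 0.0752, 0.0726, 0.0655 and 0.0614 in clusters 0 to 5, in that order, and of 0.0528, 0.069, 0.105, 0.0443 and 0.0741 in clusters 6 to 10. Clusters 8 and 9 gave its extremes, with log2 folds of 0.69 and -0.57 in the authors' deposited tables, neither called. Tfe3 had levels of 0.149, 0.14, 0.138, 0.132, 0.142 and 0.136 in clusters 0 to 5, in that order, and of 0.0998, 0.165, 0.18, 0.132 and 0.193 in clusters 6 to 10. Cluster 6 was its lowest, at -0.50 in the authors' deposited table, which met neither the size nor the p of a call. Mitf had levels of 0.0553, 0.0679, 0.0796, 0.0547, 0.0716 and 0.0725 in clusters 0 to 5, in that order, and of 0.049, 0.0644, 0.0584, 0.0922 and 0.0778 in clusters 6 to 10. Among the large clusters Mitf and Tfeb were highest in cluster 2, the cluster with the most Ctsh and the least Naglu, and Tfe3 was highest in cluster 0. Transcript levels do not report whether these factors are in the nucleus, which was not measured.

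By class, the medians in clusters 0 to 5 of the authors' deposited tables stayed within 0.06 of 0 for hydrolases, membrane proteins and V-ATPase genes, and between -0.17 and 0.25 for the 3 regulators. In cluster 6 they were -0.15 for hydrolases, -0.28 for membrane proteins, -0.10 for V-ATPase genes and -0.43 for regulators, beside -0.23 for all detected genes. The 4 lower calls of cluster 6 (Tpp1, Neu1, Npc1 and Mcoln1) all fell under 0.5 in size once that median was subtracted, while Ctss in cluster 6 remained above it. In cluster 10 the medians were 0.24, 0.43, 0.15 and 0.25 in the same order of classes, beside 0.37 for all detected genes.

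Other genes of the same compartment were read from further lists. Of 30 other lysosomal enzymes and cofactors, none was called in clusters 0, 3, 4 and 5, 1 was called lower in cluster 1, and 1 was called in each direction in cluster 2. These 2 were the serine carboxypeptidase gene Scpep1 (0.51 in the authors' deposited table) and Ctsw, a cathepsin of cytotoxic lymphocytes (-0.76). The gene lower in cluster 1 was Ctsk, which had no count there. Of all genes 2.4% were called lower in cluster 1, and 3.02% higher and 3.49% lower in cluster 2. For the other large clusters the shares are those given above. Of 19 other membrane proteins in the tables, 1 was called in the large clusters, the peptide transporter Abcb9 in cluster 4 (-0.54 in the authors' deposited table). In cluster 4, 1.35% of all genes were called lower. Of 14 other V-ATPase subunits and assembly factors, none was called there. Of 12 genes that sort enzymes to the lysosome, 1 was called, Igf2r, the mannose 6-phosphate receptor that carries newly made hydrolases, at -0.61 in cluster 0 in the authors' deposited table, and at 0.45 without a call in cluster 2. In cluster 0, 6.62% of all genes were called lower, and 1.96% of those at or above the median level. Igf2r lay on the side of the cathepsins Ctsh and Ctss in both clusters. Over the 12 sorting genes the median log2 fold was -0.02 in cluster 0 and 0.02 in cluster 2.

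In cluster 7 the further lists held calls in both directions. Of the 20 genes of mTORC1 at the lysosome and of MiT control, 6 were called lower there (Rraga, Lamtor2, Lamtor3, Lamtor4, Lamtor5 and Rheb), in a cluster where 24.3% of all genes were, and none was called in clusters 0 to 5. Rraga, which encodes a GTPase that recruits mTORC1 to the lysosome, was at -0.86 in the authors' deposited table. Among the sorting genes the 3 retromer genes Vps35, Vps26a and Vps29 were lower and Igf2r was higher, at 0.89 in the authors' deposited table. Atp6v0a1, the large V0 subunit, and Dmxl1, of the complex that reassembles the pump, were higher, at 0.79 and 0.71 in the authors' deposited table, and Atp6v1c1, Wdr7 and Ccdc115 were lower. Of all genes 1.84% were called higher in cluster 7. Among genes at or above the median level 3.48% were called higher there and 15.3% lower. Over the 138 members and further genes of these lists, the 6 higher in cluster 7 had a median transcript length of 6800 bases and the 17 lower one of 1618 bases.

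The authors' deposited pathway tables, which score cells on 2922 gene sets, are a coarser readout of the same cells and in part of the same genes. The KEGG lysosome set lay between -0.02 and 0.02 in log2 fold in clusters 0 to 5 of the authors' deposited tables, at -0.16 in cluster 6 and at 0.24 in cluster 10. It was above 65.8% of all pathways in cluster 6, where the median pathway was at -0.21, and above 38% in cluster 10, where the median was 0.27. KEGG other glycan degradation, by the authors' deposited tables, was at 0.16 in cluster 0 and at -0.12 in cluster 2, above 95.6% and 4.64% of all pathways in those tables. KEGG glycosaminoglycan degradation was at 0.11 and -0.08 there, above 90% and 8.11% of pathways. By the authors' deposited tables Reactome insulin receptor recycling, a set that holds V-ATPase genes, was at -0.26 in cluster 7 and at 0.21 in cluster 8, above 18% and 89% of pathways.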

How the data were processed

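The data comprised 11 gene tables and 11 pathway tables that the authors deposited, each for 1 cluster against all other cells. Cells were processed with Scanpy on build mm10, per the submitters' processing notes; the aligner, cell filters, doublet handling and clustering settings were not given in the sources used here. Gene tables as the authors deposited them give the log2 mean level of counts scaled to 10000 per cell and a log2 fold, with a p-value computed over cells and an adjusted p-value. The authors' deposited pathway tables give a signed score and a log2 fold. Folds below -10.0 were read as no count.

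Cluster sizes were solved from the p-values of the 19 genes seen in 1 cell, for 7 clusters from both sides and for 4 from the rest alone. Levels per cluster then followed from mean, fold and size, and gave back the deposited mean within 0.452% for every member. Counts behind a level are approximate, from the median total of 11707, which includes no cell of clusters 7 to 10. These steps were tested on simulated data. No test over samples was possible with 1 library per group. The limit that a count of 0 allows was set at 3 counts and covers counting error only.

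The members and gene lists were chosen with earlier results of these data known. Named in every cluster were members called in clusters 0 to 5, the 3 regulators and the 2 members of highest level in each class; members called only elsewhere are given for that cluster, and the rest by range. Motif searches used RefSeq promoter windows (GRCm38.p6), gene positions the mm10 annotation, and lengths the longest coding transcript in GENCODE. Python 3.11.15, pandas 2.3.3, NumPy 2.4.6, SciPy 1.17.1 and Matplotlib 3.10.9 were used.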

Additional observations from a re-analysis of the deposited data

How the results depend on the processing

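At a fold size of 0.3 instead of 0.5, members called numbered 10 in cluster 0, 5 in cluster 2, 1 in cluster 3, 10 in clusters 6 and 7 each, and 6 in cluster 8. At a size of 1 they numbered 0 in clusters 0, 2, 5, 6 and 7, and 1 in clusters 8, 9 and 10 each. The calls left in clusters 8 to 10 were Gla in clusters 8 and 10 and Ctss in cluster 9. Each was lower and by estimate rested on fewer than 3 counts, so they are not strong calls. With members at or above the median level alone, 1 was called in cluster 0, 1 in cluster 2 and 0 in cluster 5. With size alone and no p, 6 were called in cluster 8, 8 in cluster 9 and 12 in cluster 10. No share of all genes stands beside the counts at sizes 0.3 and 1 or without p. Those counts therefore cannot show more or fewer calls than among all genes. After subtraction of the median fold of all detected genes, 1 was called in cluster 6, and class medians moved in clusters 6, 8 and 10: 0.085, -0.24 and -0.14 for hydrolases, -0.048, -0.40 and 0.057 for membrane proteins, 0.13, 0.11 and -0.22 for V-ATPase genes, and -0.19, 0.23 and -0.13 for regulators. With members at or above the median level alone, the median was -0.45 for membrane proteins in cluster 6, and 0.11, -0.031, 0.24 and 0.46 for regulators in clusters 0, 2, 7 and 10, which then rest on Tfe3 alone. Means in place of medians moved membrane proteins in cluster 9 to -0.021 and V-ATPase genes in cluster 10 to 0.26. Nuclear counts alone in the scaling, chosen after seeing the data, left every count and class median within the set limits, and so did keeping members without a count for the class medians, the result it was run on. These counts add both directions, which hides a change in cluster 7. Calls there went from 0 higher and 4 lower to 1 higher and 2 lower, with nuclear counts alone and after subtraction of the median fold alike. The cause of these changes was not tested. No paired analysis was possible because each group is 1 library and the tables hold no values per library. For the same reason no library could be left out. Depth limits cluster 10, with 10 cells, and the members Ctss, Lgmn, Gla, Cd68, Naglu, Tfeb and Mitf, whose levels reached at most 0.118 counts per 10000 in any cluster.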
